A study of Mus musculus with 16 samples.

Results

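Complement gene expression was examined in bone marrow-derived macrophages (BMMs) through 9 genes chosen by symbol among the 47069 genes of the deposited count table: C1qa, C1qb and C1qc, which encode the chains of C1q, the components C2, C3, Cfb and Cfp, and the receptors C3ar1 and C5ar1. The BMMs were grown from C57BL/6 mice aged 8 to 10 weeks in L929-conditioned medium, primed with IFNγ (10 ng/mL) and activated for 1 hr with LPS (100 ng/mL) and immune complexes of ovalbumin and rabbit IgG (LPS/ICs). They received either DAPT (25 μM), a gamma-secretase inhibitor (GSI), or the vehicle DMSO (0.01%), and the study's methods place both overnight before activation. Some figure legends of the study, for other experiments, give a shorter pre-treatment. IFNγ, LPS and ICs were common to both groups, so the comparison is that of GSI with vehicle in activated cells. Each group had 2 replicates of 4 runs, which were summed, giving 4 libraries of 42694655 to 56932059 counts. All 9 genes passed the filter on low counts.

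Complement is a set of plasma and cell surface proteins that cleave each other in a cascade. C1q recognises antibody bound to antigen, as in ICs, and starts the classical pathway through the proteases C1r and C1s, which act on C4 and C2. C3 is the protein on which the pathways converge, factor B and properdin belong to the alternative pathway that amplifies C3 cleavage, and the peptides C3a and C5a released on the way act on cells through the receptors encoded by C3ar1 and C5ar1. The liver makes most complement of plasma, while C1q is made largely by macrophages and related cells.

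Of the 9 genes, C3 and Cfb were higher and C3ar1 was lower in GSI-treated BMMs than in DMSO-treated BMMs, and the other 6 did not pass the test. The 3 genes passed an FDR of 0.05 (edgeR's quasi-likelihood test over 13211 genes with Benjamini-Hochberg adjustment), while 40.8% of all genes tested did. In the upward direction 2 of 9 passed, against 19% of all genes, and in the downward direction 1 of 9, against 21.9%. Only Cfb also passed the study's cut-off of an absolute log2 fold change above 1.5. Both thresholds together were passed by 2.91% of all genes, 0.742% upward and 2.17% downward. The GSI libraries did not overlap the DMSO libraries in 7 of the 9 genes, and this held for 70.6% of all genes. The median log2 fold change of the 9 genes was -0.13, compared with 0.01 for all genes tested. Levels are given as CPM, the counts of a gene relative to all counts of its library with TMM scaling, fold changes are those of GSI against DMSO, and an SD is that of 2 libraries. In bulk RNA, fewer cells of a type and less RNA per cell cannot be told apart.

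**Figure D1:**
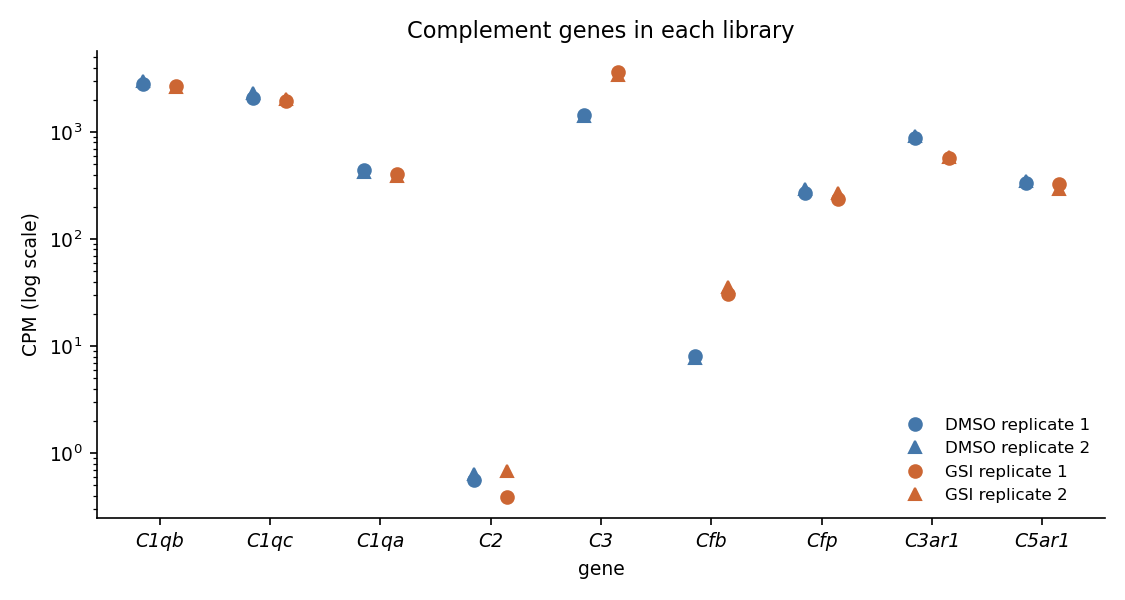
CPM of the 9 complement genes (log axis) in each of the 4 libraries, with DMSO in blue, GSI in orange, circles for replicate 1 and triangles for replicate 2. C3 and Cfb are higher in both GSI libraries and C3ar1 is lower, whereas the DMSO and GSI points of the other genes lie close together.

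The macrophage label was checked against 8 macrophage markers, all of which were tested and well expressed, led by Lyz2, Csf1r and Cd14. Their summed level was 12278 and 12485 CPM with DMSO and 9489 and 10414 CPM with GSI, and 6 fell (Adgre1, Csf1r, Fcgr1, Lyz2, Cd14 and Itgam), Mertk rose, and Cd68 did not pass. The fall of C3ar1 thus stands beside falls in most of these markers, whose part in the result was not tested. Markers of other cells that make complement were near 0: the 5 stromal markers summed to 0.124 to 0.209 CPM, with Col3a1 at 0 counts, and the 9 neutrophil markers to 0.697 to 1.43 CPM, with Elane and Retnlg at 0 counts. B cell markers summed to 0.344 to 0.538 CPM, T cell markers to 1.04 to 2.77 CPM, nearly all from Lck, which was higher with GSI, and the 4 mast cell and basophil markers had 0 counts. The 6 dendritic cell markers summed to 179 to 186 CPM with DMSO and 113 to 115 CPM with GSI, nearly all from Clec9a. Of the 4 that were tested, Clec9a and Xcr1 were lower with GSI (log2 fold change -0.69 and -0.42, edgeR FDR = 1.20e-07 and 0.0175). Zbtb46 and Ccr7 did not pass, Flt3 had at most 2 counts and Cd209a had 0. The part of these dendritic cell markers in the result was not tested. The Notch target genes Hes1, Hey1, Nrarp and Dtx1 had at most 5 counts in any library and were not tested, so they gave no check of the inhibition in these libraries.

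Complement C3 was the most abundant of the genes that changed. C3 (ENSMUSG00000024164, chromosome 17 of GRCm38, 57203970 to 57228136) had 62019 and 79798 counts in the DMSO libraries and 176049 and 168416 counts in the GSI libraries, or 1441 and 1406 CPM against 3642 and 3410 CPM. The replicates of each group were close to each other and the groups were far apart, with means of 1424 ± 24.7 and 3526 ± 164 CPM (SD, n = 2). C3 rose 2.48-fold, or by 1.31 on the log2 scale with a standard error of 0.0760 (edgeR FDR = 6.45e-11). Among the 1945 genes with a mean of at least 100 CPM, only 5 rose more than C3, which was in position 6. The log2 fold change of C3 lay between 1.26 and 1.36 in the fits that each omitted a library.

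The alternative pathway protease gene Cfb, which encodes factor B, was weakly expressed and rose more than C3. Cfb (ENSMUSG00000090231, chromosome 17, 34856374 to 34862518) was counted 349 and 438 times in the DMSO libraries, compared with 1500 and 1747 times under GSI, or 8.11 and 7.72 CPM against 31.0 and 35.4 CPM. Every GSI value exceeded every DMSO value, with means of 7.92 ± 0.277 and 33.2 ± 3.07 CPM (SD, n = 2). Cfb rose 4.20-fold, or by 2.07 on the log2 scale with a standard error of 0.0948 (edgeR FDR = 2.06e-12). Cfb remained far below C3 in every library. The ratio of Cfb to C3 counts was 0.00563 and 0.00549 under DMSO, compared with 0.00852 and 0.0104 under GSI, and its mean was 1.69-fold higher with GSI (exact permutation test, 2-sided, p = 0.333, the smallest p that 2 libraries against 2 allow).

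Cfp, which encodes properdin, the protein that stabilises the convertase formed by C3b and factor B, did not pass the test. Cfp (ENSMUSG00000001128, chromosome X, 20925454 to 20931555) was at 270 and 291 CPM with DMSO and at 235 and 271 CPM with GSI, so the groups overlapped. Its log2 fold change was -0.15 (95% interval -0.31 to 0.01, edgeR FDR = 0.130). Without GSI replicate 2 the log2 fold change of Cfp was -0.26 and passed (FDR = 0.0102), and the fit with the replicate number as a block gave -0.15 and also passed (FDR = 0.0448). Neither holds in the fit of all 4 libraries by group alone. Of the alternative pathway genes, Cfd, which encodes the protease factor D, had 0 counts in every library.

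The sequences before the starts of C3 and C3ar1 are shown because these were the abundant genes with the clearest changes in each direction. RefSeq promoter windows (GRCm38.p6) were found for 6 of the 9 genes, namely C1qb, C1qc, C3, C3ar1, C5ar1 and Cfp, and the 250 bases before the start were searched on both strands for 5 motifs, TGGGAA (RBPJ), GGGA, NNNN and CC in a row (NF-κB), TGANTCA (AP-1), TTGCNNAA (C/EBP) and GAGGAA (PU.1). The windows are chr17:57228137-57228386 and chr6:122856158-122856407, both on the minus strand, written 5′ to 3′ with every motif match in capitals.
C3: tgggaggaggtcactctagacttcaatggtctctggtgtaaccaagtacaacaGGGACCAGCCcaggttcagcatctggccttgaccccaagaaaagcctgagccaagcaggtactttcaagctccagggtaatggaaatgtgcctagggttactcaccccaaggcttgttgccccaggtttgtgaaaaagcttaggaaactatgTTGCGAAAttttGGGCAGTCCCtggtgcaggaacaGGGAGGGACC
C3ar1: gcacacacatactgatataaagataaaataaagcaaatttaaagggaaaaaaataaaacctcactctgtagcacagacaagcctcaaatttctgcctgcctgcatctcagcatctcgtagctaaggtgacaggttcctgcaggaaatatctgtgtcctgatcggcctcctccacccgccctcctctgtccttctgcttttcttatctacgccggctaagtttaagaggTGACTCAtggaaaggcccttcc
The C3 window held 3 matches to the NF-κB letters, which began 197, 33 and 10 bases before the start, and 1 match to the C/EBP letters, which began 45 bases before it, and no match overlapped another. NF-κB letters were present in 17.6% of all 32851 windows and C/EBP letters in 9.56%. The C3ar1 window held 1 match, to the AP-1 letters, 22 bases before the start, a motif present in 6.75% of windows. C1qb had 2 overlapping matches to the NF-κB letters and 1 to the PU.1 letters (23.3% of windows), and C1qc had 1 of each. The windows of C5ar1 and Cfp had none of the 5 motifs. The starts are those of RefSeq, and the windows of C1qc, C5ar1 and, by a few bases, C3ar1 reach into the gene positions given here. The bases after the start were not found in an annotated transcript of C1qb, whereas they were for the other genes with a window. RBPJ letters, found in 21.6% of all windows, were in none of the 6 windows. These matches are descriptions of the letters and not of binding.

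C2, which encodes the protease that forms the classical pathway convertase with C4b, lies beside Cfb and was barely detected. C2 (ENSMUSG00000024371, chromosome 17, 34862604 to 34898265) was counted 24 and 36 times under DMSO, compared with 19 and 34 times under GSI, or 0.558 and 0.635 CPM against 0.393 and 0.688 CPM. The groups overlapped and the interval was wide, with a log2 fold change of -0.15 (95% interval -0.84 to 0.54, edgeR FDR = 0.757). At the depth of C2, the data allow either a rise or a fall within this interval. Without GSI replicate 1 the direction of C2 turned, with a log2 fold change of 0.20.

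The counts of Cfb and C2 have a shared limit in the annotation. C2 ends 85 bases before Cfb begins on the same strand, and Gm20547, a separate protein-coding gene in GENCODE M21, spans both. Of the 2825 exon bases of Cfb, 2246 (79.5%) also belong to Gm20547, and of the 3872 exon bases of C2, 1656 (42.8%) do. Gm20547 itself was listed with 1, 0, 0 and 0 counts. How reads on shared bases were counted is not given in the sources used here, and the effect on the levels of Cfb and C2 was not tested. Per kilobase of all exons, Cfb was at 2.87 and 2.73 CPM with DMSO and at 11.0 and 12.5 CPM with GSI. Per kilobase of the 579 exon bases that no other gene shares, the same counts gave 14.0 and 13.3 CPM with DMSO and 53.6 and 61.1 CPM with GSI. The fold change of Cfb does not depend on the length used. C2 also shares 161 exon bases with Zbtb12 on the other strand, whereas the other 8 genes share none with a gene on the other strand.

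**Figure D2:**
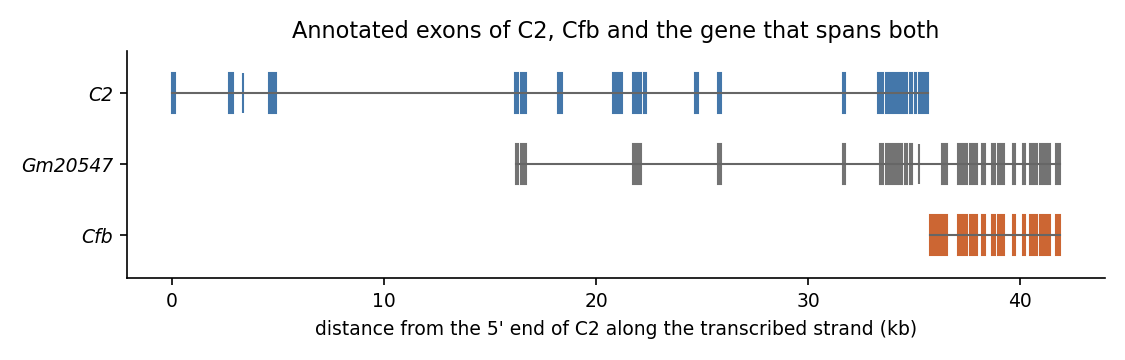
Annotated exons (blocks) and introns (lines) of C2, Gm20547 and Cfb in GENCODE M21, plotted in kb from the 5′ end of C2 along the transcribed strand. Gm20547 takes in most exons of Cfb and several exons of C2, and these bases are annotated to more than 1 gene.

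The C1q genes were among the most highly expressed genes of these BMMs and differed little between the groups. They lie in a cluster on the minus strand of chromosome 4, C1qb at 136880129 to 136886187, C1qc at 136889804 to 136893065 and C1qa at 136895917 to 136898803 (ENSMUSG00000036905, ENSMUSG00000036896 and ENSMUSG00000036887). C1qb was at 2826 and 2990 CPM with DMSO and at 2677 and 2650 CPM with GSI. C1qc was at 2077 and 2299 CPM with DMSO and at 1946 and 2036 CPM with GSI. C1qa was at 438 and 422 CPM with DMSO and at 404 and 388 CPM with GSI. In all 3 genes both GSI values lay under both DMSO values, but the gap between the groups was smaller than the gap between the DMSO replicates for C1qb and C1qc, and for C1qa about equal to that between replicates. The log2 fold changes were -0.12 for C1qa, -0.13 for C1qb and -0.14 for C1qc, with edgeR FDR values of 0.189, 0.182 and 0.167, and the 95% intervals together ran from -0.30 to 0.03. The log2 fold change of C1qc was -0.21 without DMSO replicate 1 and -0.064 without DMSO replicate 2, and it passed in neither fit. Entering the 16 runs as separate samples gave nearly the same fold changes with FDR values of at most 0.000147, but runs of a replicate are not separate cultures.

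The proportions of the C1q genes lay nearer between libraries of the same replicate number than between libraries of the same treatment, which is a description of 4 libraries without a test. The chains assemble in equal numbers in the protein, while C1qb supplied 52.2% to 53.2% of the counts of the 3 genes. C1qa supplied 8.20% (95% exact binomial interval 8.08% to 8.31%) and 8.05% (7.94% to 8.15%) in replicate 1 of DMSO and GSI. In replicate 2 of DMSO and GSI the share of C1qa was lower, 7.40% (7.31% to 7.49%) and 7.64% (7.54% to 7.75%). The share of C1qc was 38.9% and 38.7% in replicate 1 and 40.3% and 40.1% in replicate 2 of DMSO and GSI. The labels do not say whether replicates of the same number shared a culture or day. These intervals cover counting error only and treat each count as independent, which copies made by PCR would not be.

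**Figure D3:**
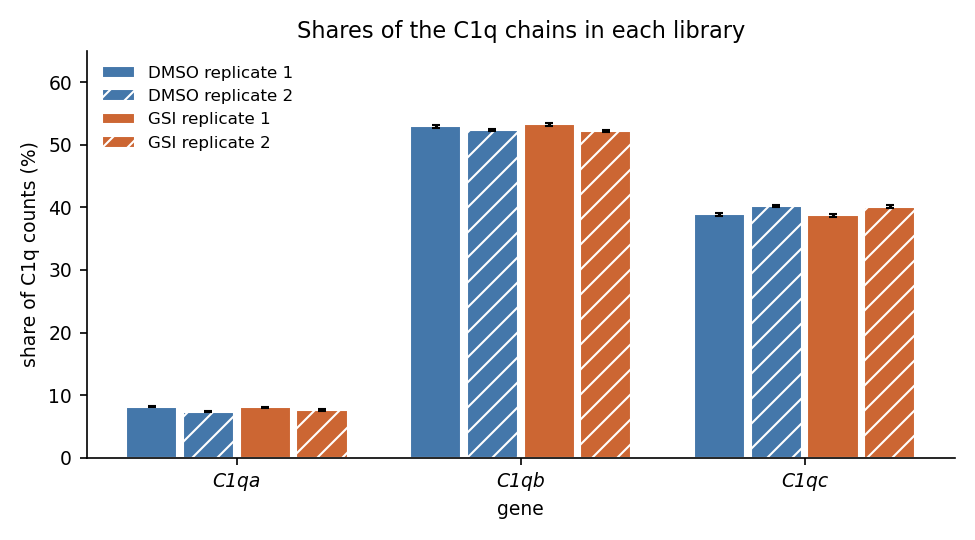
Share of each C1q gene in the summed counts of C1qa, C1qb and C1qc (percent) in each library, with 95% exact binomial intervals as error bars; DMSO is blue, GSI orange and replicate 2 hatched. C1qc takes 38.7% to 38.9% in replicate 1 and 40.1% to 40.3% in replicate 2, in both groups.

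The receptor gene C3ar1 fell with GSI, and C5ar1 did not pass the test. C3ar1 (ENSMUSG00000040552, chromosome 6, 122847138 to 122856161), which encodes the receptor of C3a, was counted 37853 and 52367 times under DMSO, compared with 27461 and 29054 times under GSI, or 880 and 923 CPM against 568 and 588 CPM. The gap between the groups was several times the gap between replicates, with means of 901 ± 30.6 and 578 ± 14.3 CPM (SD, n = 2). C3ar1 had a log2 fold change of -0.64 with a standard error of 0.0729 (edgeR FDR = 6.04e-07), which lay between -0.68 and -0.61 in the fits that each omitted a library. Tested against a change of 1.5-fold rather than against 0, C3ar1 did not pass (FDR = 0.731).

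C5ar1 (ENSMUSG00000049130, chromosome 7, 16246743 to 16259540), which encodes the main receptor of C5a, was at 331 and 346 CPM with DMSO and at 324 and 293 CPM with GSI. Its values lay close together, with a log2 fold change of -0.13 (95% interval -0.29 to 0.02, edgeR FDR = 0.154). Without GSI replicate 1 the log2 fold change of C5ar1 was -0.21 and passed (FDR = 0.0416). The relation of the receptors within a library is free of library scaling. There were 2.66 and 2.67 counts of C3ar1 per count of C5ar1 under DMSO, compared with 1.75 and 2.01 in the GSI libraries, a difference of -0.51 on the log2 scale (exact permutation test, 2-sided, p = 0.333, the smallest p possible here). For the ligand precursor C3 relative to the receptor C3ar1, the counts ratio went from 1.64 and 1.52 under DMSO to 6.41 and 5.80 under GSI.

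**Figure D4:**
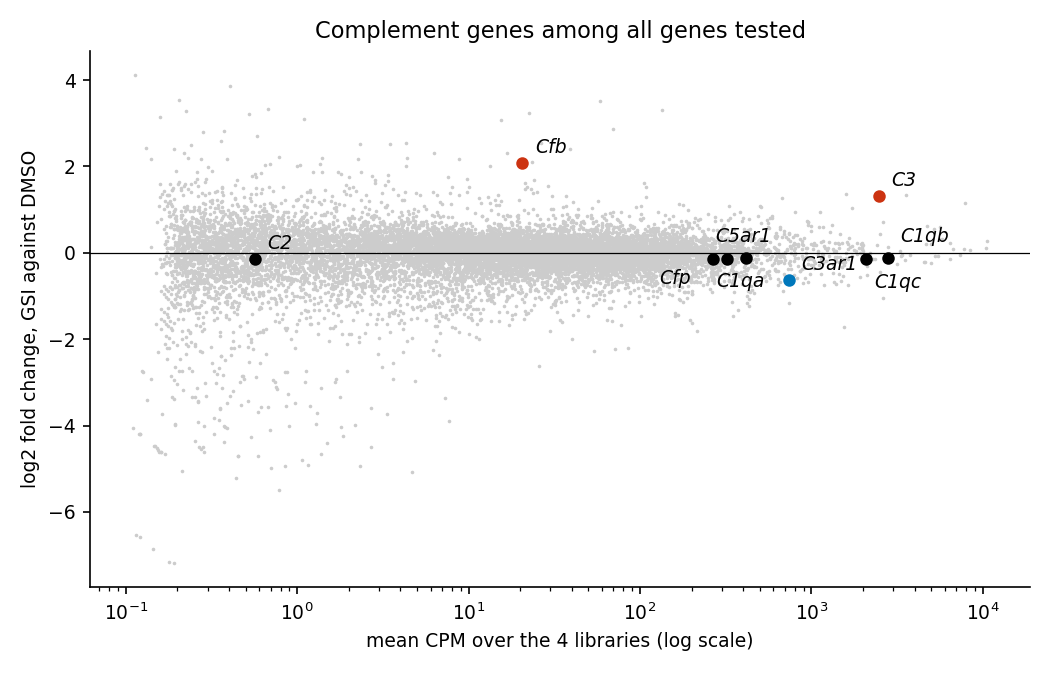
Log2 fold change (GSI against DMSO) against mean CPM over the 4 libraries (log axis) for the 13211 genes tested (grey), with the 9 complement genes named: red rose, blue fell and black did not pass an FDR of 0.05. C3 and Cfb stand above most genes of similar level and C3ar1 below 0, while the C1q genes, Cfp, C5ar1 and C2 lie near 0.

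Ordered by CPM per kilobase of exon, the DMSO means were highest for C1qb (2673), followed by C1qc (1133), C1qa (414), C3 (277), C3ar1 (209), Cfp (161), C5ar1 (132), Cfb (2.80) and C2 (0.154). No neighbours in this order overlapped between the 2 DMSO libraries. In the GSI libraries C3 (686) stood above C1qa (381), and C3ar1 (134) had come to the level of Cfp (145), with libraries that overlapped. C1qb held position 10 among 13165 genes by CPM per kilobase with DMSO and position 13 with GSI, C3 moved from position 177 to 64, and Cfb from position 7205 to 3317. These levels depend on the annotated exon length, and for Cfb and C2 on the shared exons described above.

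A wider list of 51 complement genes, which includes the 9, gave the surroundings of these changes. Of the 51, 27 were tested, and 12 passed an FDR of 0.05, with 5 higher and 7 lower, beside the 40.8% of all genes that passed. The median log2 fold change of the 27 was -0.13. In the classical and lectin pathways, 4 of 10 tested genes passed. C1s1 and C1ra, which encode the proteases that C1q carries, rose: C1s1 from 12.2 and 12.4 CPM to 31.9 and 36.2 CPM, with a log2 fold change of 1.47, and C1ra from 64.1 and 58.1 CPM to 94.3 and 97.6 CPM, with a log2 fold change of 0.65 (edgeR FDR = 1.11e-10 and 5.52e-07). The protease genes of the C1 complex thus rose while those of its recognition chains did not pass. C4b, which encodes the C4 cleaved by C1s, fell from 37.0 and 37.9 CPM to 19.7 and 21.8 CPM, with a log2 fold change of -0.85 (edgeR FDR = 5.84e-08). C4a, a near-identical copy with 20, 67, 62 and 69 counts, had a log2 fold change of 0.64 (FDR = 0.0884), and reads of the 2 copies may be split uncertainly, as may those of C1ra and C1rb or of C1s1 and C1s2.

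Masp1, a protease gene of the lectin pathway with 19, 19, 10 and 6 counts, was at the edge of the call (log2 fold change -1.21, FDR = 0.0400) and passed neither with DESeq2 (FDR = 0.221) nor in any of the 4 fits that omitted a library, where its log2 fold change ranged from -1.63 to -0.88. Fcna, which encodes a ficolin, was at 13.1 and 14.4 CPM with DMSO and at 13.6 and 14.3 CPM with GSI (log2 fold change 0.02, FDR = 0.884). Of the terminal pathway only C8g was tested, at 0.458 to 0.688 CPM with a log2 fold change of 0.35 (FDR = 0.389), and the other 6 genes of that pathway had at most 5 counts in any library.

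Serping1, which encodes the C1 inhibitor, rose from 9 and 16 counts to 41 and 46 counts, a log2 fold change of 1.82 (edgeR FDR = 0.000201). Of the soluble regulators, 6 were not tested and had at most 8 counts in any library. Of the 5 membrane regulators tested, 0 passed with edgeR, 0 had an unadjusted p under 0.05 and 0 passed with DESeq2, while 40.8% of all genes passed with edgeR and 32% with DESeq2. Cr1l, the most abundant of them and an inhibitor of C3 deposition on mouse cells, was at 74.7 and 70.1 CPM with DMSO and at 65.6 and 70.8 CPM with GSI, with a log2 fold change of -0.09 (95% interval -0.24 to 0.07). Cd59a was at 6.69 and 6.68 CPM with DMSO and at 6.23 and 5.59 CPM with GSI (log2 fold change -0.18, FDR = 0.234), and Cd46, Cd55 and Cd59b were each under 1 CPM in every library.

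Of the complement receptors, 4 of 6 tested genes fell and 0 rose, beside 21.9% of all genes lower and 19% higher. Itgam is also among the 6 of 8 macrophage markers that fell, whose part in the result was not tested. Beside C3ar1 these were the integrin genes of complement receptors 3 and 4, which bind fragments of C3: Itgam from 99.5 and 113 CPM to 68.6 and 68.7 CPM (log2 fold change -0.63), Itgax from 35.2 and 35.3 CPM to 19.9 and 20.8 CPM (-0.79) and Itgb2, the shared chain, from 1160 and 1162 CPM to 903 and 923 CPM (-0.35), with edgeR FDR values of 1.15e-06, 1.03e-07 and 0.000637. Itgam shares 3450 exon bases with Gm49368 on the same strand. C5ar2, the second receptor of C5a, was at 3.07 and 3.40 CPM with DMSO and at 2.28 and 2.88 CPM with GSI (log2 fold change -0.33, FDR = 0.108). Cr2 and Vsig4 had at most 1 count in any library.

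**Figure D5:**
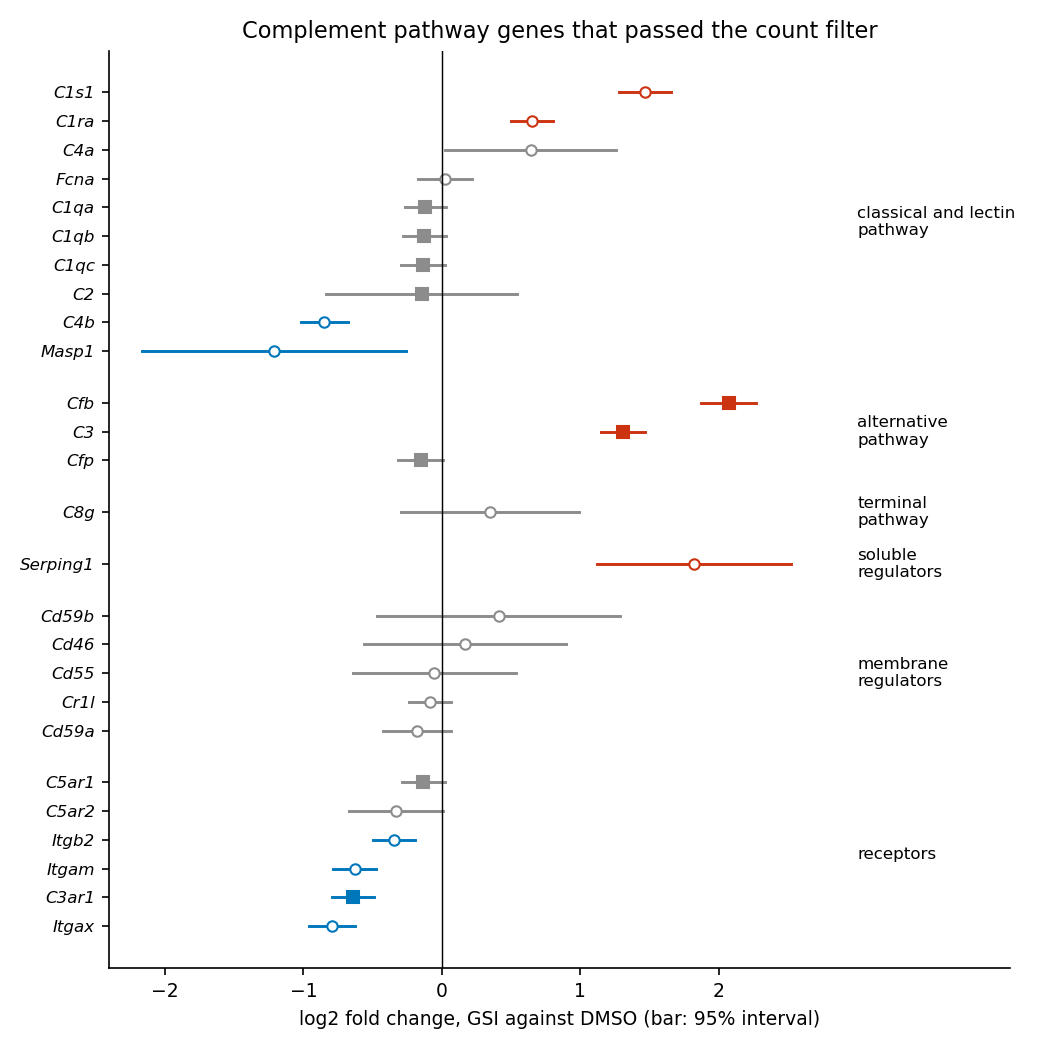
Log2 fold changes (GSI against DMSO) with 95% intervals for complement pathway genes that passed the count filter, grouped by role; filled squares are the 9 genes of the report, open circles other genes of the wider list, red rose, blue fell and grey did not pass an FDR of 0.05. In red, Cfb, C3, C1s1, C1ra and Serping1 lie to the right, and in blue, Masp1, C4b and 4 receptor genes lie to the left.

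The genes whose pattern was most like that of the 3 changed genes were found by the root-mean-square difference of centred log2 CPM over the 4 libraries, among 7573 genes with a mean of at least 10 CPM. For C3 these were Gdpd1, Procr and Cyp51, with differences of 0.0383, 0.0478 and 0.0515. For Cfb they were Phgdh, Mmp14 and Trib3, with differences of 0.0791, 0.140 and 0.158. Like Cfb, these 3 genes, and Gdpd1 and Cyp51 too, were under 10 CPM in both DMSO libraries and reached the mean of 10 CPM only through the GSI libraries, so the filter favoured genes with such a change. For C3ar1 they were Alox5ap, Gsn and Tbc1d1, with differences of 0.0121, 0.0130 and 0.0180. With 4 libraries, such a pattern is set almost wholly by the size of the group difference.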

How the data were processed

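RNA-seq of LPS/IC-activated BMMs treated with DMSO or GSI was used. Per the study's methods, the authors made strand-specific poly(A) libraries (TruSeq stranded mRNA kit, NextSeq), trimmed adapters with Trimmomatic, aligned reads with STAR (2.5.0a in the submitters' processing notes, which list mm9 beside mm10) to mm10 and used HTSeq for counting. Its version, mode and strand setting are not given in the sources used here. The authors deposited raw counts for 47069 genes with Ensembl identifiers (the methods name Entrez Gene) in 16 columns, without normalization.

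The 4 runs of each replicate were summed; over 36 sets of gene and library, the runs differed at an unadjusted chi-square p under 0.05 in 2 (lowest Benjamini-Hochberg adjusted p = 0.522). Group and replicate number came from the sample titles. The labels do not say whether replicates were separate cultures, so p-values measure the spread between these samples, which may be technical. Genes were tested with the quasi-likelihood test of edgeR 4.0.16 (R 4.3.3; filterByExpr, TMM, group as the only factor, 2-sided, Benjamini-Hochberg over 13211 genes), and thresholds were an FDR under 0.05 and, after the study, an absolute log2 fold change above 1.5. The standard error is the log2 fold change divided by the square root of F. A count of 0 allows up to 3 counts, or 0.0527 to 0.0703 CPM per library, and covers only counting error. The common biological coefficient of variation was 0.0579.

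Positions and exon lengths came from GENCODE M21 on GRCm38, which held 98.8% of the gene IDs. Where a symbol had 2 rows (Itgam, C1s2), the row with the same name in GENCODE was used. Promoter windows came from RefSeq (GRCm38.p6). Named genes were the 9 genes, the tested genes of the wider lists and the 3 most similar genes of each changed gene with a mean of at least 10 CPM. Of the wider list, 1 gene is counted but not reported here, nor is 1 motif. The genes and lists were chosen with earlier results of these data known. Alternatives were a replicate block, runs as samples, other filters, other scaling (RLE, none), DESeq2 1.42.0, glmTreat with 1.5-fold and the omission of each library. Testing only genes without exons on the other strand was added after the data were seen. Scripts were tested on simulated data.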

Additional observations from a re-analysis of the deposited data

How the results depend on the processing

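Over 115 refits of the 9 genes, 105 kept the direction and the side of the FDR threshold, 8 newly passed it, 1 no longer passed it and 1 changed direction. C3 and Cfb passed in all 13 alternatives, with log2 fold changes from 1.26 to 1.36 and from 1.97 to 2.16. C3ar1 failed to pass under glmTreat against 1.5-fold (-0.64), which asks for a larger change and called 6.35% of all genes, so that 0 of the 9 were called lower there, and 7 of the wider list passed, 3 of them lower. With the 16 runs as separate samples, which treats runs as replicates and called 67.8% of all genes, 8 of the 9 passed, 6 of them lower (C1qa -0.12, C1qb -0.12, C1qc -0.13, Cfp -0.15 and C5ar1 -0.13 beside C3ar1), and 13 genes of the wider list were lower; C2 was not tested in that fit, nor in the alternative, added after the data were seen, that dropped genes with antisense exon overlap. The replicate numbers are not known to pair the samples (the correlation of their deviations was 0.175 over 10957 genes). The replicate block, under which 48.8% of all genes passed, gave 2 lower genes, with Cfp passing at -0.15 (FDR = 0.0448 from edgeR's quasi-likelihood test), and changed no other call among the 9.

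Leaving out 1 library assumes that a lone library varies like the other group. Of the 9 genes, 3 to 4 then passed, 1 to 2 of them lower and 2 higher in each fit, and 11 to 13 genes of the wider list passed, while 30.7% to 36.5% of all genes did. Log2 fold changes ranged from -0.26 to -0.051 for Cfp, from -0.21 to -0.061 for C5ar1, from -0.21 to -0.064 for C1qc and from -0.61 to 0.20 for C2, whose sign changed without GSI replicate 1. No scaling moved the median of all genes by more than 0.01 (log2). At 6 to 46 counts per library, depth limits C2, Masp1 and Serping1, and the last 2 were not tested at a minimum of 10 counts in every library.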
